A study of Mus musculus with 32 samples.

Results

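The 10 genes of the Atf4 stress and amino acid response were followed in BV-2 cells, a mouse microglial cell line. Microglia are the macrophages that live in brain tissue. The genes are Atf4, Atf3, Ddit3, Trib3, Chac1, Asns, Psat1, Phgdh, Sesn2 and Hspa5, taken by gene name as 10 of the 45706 genes in the deposited count table. All 10 had reads, and 9 of the 10 were abundant enough to be tested in every comparison. Chac1 passed the filter on low counts only in the comparisons within LPS.

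The cells carried a wild-type genotype and were transfected with a scramble mimic as control or with a mimic of 1 of 3 microRNAs: miR-146a-5p, miR-7a-5p and miR-29a-3p. A mimic is a synthetic RNA duplex that supplies the cell with extra mature microRNA. Each mimic was combined with vehicle (VEH) or with lipopolysaccharide (LPS, an endotoxin from the outer membrane of bacteria, sensed by TLR4) for 24 h at 10 ng/ml. This gave 8 groups of 4 libraries, 32 libraries in all, sequenced as total RNA after ribosomal RNA depletion. All groups came from the same cell line. The study's methods call its BV-2 replicates independent experiments, and the sample labels give no culture or date for a library, so the p-values measure the spread between such repeats of a single line. In each condition the 3 mimics were compared with the same 4 scramble libraries, so these comparisons share their controls. The sample labels and the study's methods differ on whether LPS came before or after transfection. The labels also name the cells a glioblastoma line and carry mouse ages that cannot apply to a cultured line.

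Restored totals ran from 1161272 to 20307171 counts per library, and the LPS libraries were mostly the deeper ones. Of 12 microglia and macrophage markers, 10 had a mean of 1 CPM (counts scaled to the TMM-adjusted library size) or more, with Csf1r and Cx3cr1 below that level. The 12 markers summed to between 2177 and 5115 CPM per library. The 7 astrocyte and glioma markers, which include Gfap, Olig2 and Sox2, summed to at most 2.19 CPM in any library, the 4 neuronal markers to at most 3.04 CPM and the 4 fibroblast markers to at most 2.19 CPM. The LPS label was checked in the scramble cells on Saa3 (log2 change 8.58, limma-voom adjusted p = 1.19e-07), Nos2 (3.65, adjusted p = 0.00112) and Il1b (4.02, adjusted p = 0.0117). In 3 VEH miR-7a libraries (replicates 2 to 4), small structural RNAs took 40.2%, 36.0% and 38.4% of counts against 4.41% in replicate 1. The group mean of 29.8% ± 16.98 (SD, n = 4) and that of VEH scramble, 10.0% ± 2.32, gave a two-sided exact permutation p of 0.143, where 0.0286 is the smallest that 4 against 4 libraries allow. The members' calls that use this group are given with and without these 3 libraries. VEH miR-29a replicate 2 was at 19.4%, against 4.57% to 7.49% in the rest of its group. The VEH scramble libraries held 6.85% to 12.4% and the LPS scramble libraries 3.04% to 5.91%, with no overlap. The part of these differences in the LPS calls was not tested.

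Atf4 is a transcription factor whose mRNA is translated more when stress kinases phosphorylate the initiation factor eIF2α, the step that starts the integrated stress response. It induces other transcription factors (Atf3 and Ddit3, also called CHOP), feedback regulators (Trib3, Chac1, Sesn2) and enzymes that make amino acids (Asns for asparagine, Phgdh and Psat1 for serine). Hspa5 encodes BiP, the main Hsp70 chaperone of the endoplasmic reticulum (ER) and the usual readout of the unfolded protein response. Because ATF4 protein is set largely by translation, the mRNA levels given here do not measure it.

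The mature microRNAs that the mimics copy are shown first because a shared seed with a member's 3′ UTR would be the direct way for a mimic to reach it. They are given from the RefSeq table (GRCm38.p6), 5′ to 3′, with the seed (bases 2 to 8) in capitals.
mmu-miR-7a-5p: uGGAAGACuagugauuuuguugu
mmu-miR-29a-3p: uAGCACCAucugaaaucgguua
mmu-miR-146a-5p: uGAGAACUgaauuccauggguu
The miR-7a-5p sequence is encoded at chr7:78888295-78888317 (+ strand) and chr13:58392841-58392863 (− strand), miR-29a-3p at chr6:31062673-31062694 (− strand) and miR-146a-5p at chr11:43374435-43374456 (− strand). No 2 of the 3 share a seed.

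A match to bases 2 to 8, or to bases 2 to 7 followed by A, was searched in the annotated 3′ UTR of 1 transcript per gene. The members' 3′ UTRs ran from 81 bases (Atf4) to 1684 (Sesn2), and the shares over all genes are not matched for length. No member held a match for miR-7a-5p, which 20.9% of 20673 genes with a 3′ UTR did, and no member held a match for miR-146a-5p, which 16.3% did. For miR-29a-3p, 1 of the 10 members had a match (14.5% of all genes). It was Trib3, a pseudokinase, at bases 305 to 311 of a 785-base 3′ UTR, shown with the matched bases in capitals.
Trib3 3′ UTR: gtcttctcTGGTGCTggttcatg
The Trib3 level with miR-29a had a positive log2 difference from scramble in both conditions, which was 0.79 (SE 0.66, limma-voom adjusted p = 0.706) under VEH and 0.27 (SE 0.25, adjusted p = 0.579) under LPS. The VEH value ran from 0.13 without VEH scramble replicate 3 to 1.47 without VEH scramble replicate 4, was 0.42 without VEH miR-29a replicate 4, and was 0.45 with the replicate block, with no call in any of these fits. A match is a description of the sequence and not a measured site.

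Promoters were searched over the 250 bases before the RefSeq start site, on both strands, for the C/EBP-ATF composite motif TGATGNAA that ATF4 dimers are known to bind. It was found in 3 of the 10 members (Asns, Atf3 and Chac1) and in 3.91% of 27025 genes. The 3 sites are printed on the gene's strand with the motif in capitals, and in Atf3 and Chac1 it lies on the opposite strand.
Asns (chr6:7693214-7693243): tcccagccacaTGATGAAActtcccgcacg
Atf3 (chr1:191183425-191183454): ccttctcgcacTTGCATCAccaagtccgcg
Chac1 (chr2:119351038-119351067): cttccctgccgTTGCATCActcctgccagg
The sites lay 23 to 16, 110 to 103 and 193 to 186 bases upstream of the start. The full cAMP response element TGACGTCA was found in none of the 10 members and in 1.77% of genes. The ER stress element, CCAAT and CCACG separated by 9 bases, was found in Hspa5 alone among the members and in 0.13% of genes, at 65 to 47 bases upstream.
Hspa5 (chr2:34772020-34772048): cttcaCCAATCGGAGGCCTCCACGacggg
No match in a window says only that these letters are not in it.

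The levels of the members in unstimulated scramble cells spanned a wide range. Per kilobase of transcript, mean levels were 133 CPM for Phgdh, 132 for Hspa5, 114 for Atf3, 66.7 for Psat1 and 58.7 for Atf4. Asns followed at 22.7, Sesn2 at 10.0, Ddit3 at 5.46, Trib3 at 2.15 and Chac1 at 0.312 CPM per kilobase. The library ranges of Phgdh (115 to 158), Hspa5 (110.5 to 192) and Atf3 (99.4 to 127) overlapped, as did those of Psat1 (59.9 to 77.4) and Atf4 (46.6 to 75.2). Sesn2 (4.69 to 15.3) overlapped Ddit3 (3.97 to 7.02), which overlapped Trib3 (0.238 to 4.45), which overlapped Chac1 (0.00 to 0.721). The order of Phgdh, Hspa5 and Atf3, and that of Psat1 and Atf4, was within their spread. Sesn2 lay wholly above Trib3 and Chac1, Ddit3 lay wholly above Chac1, and Trib3 was above Chac1 in each library. Asns (19.8 to 25.1) lay apart from its neighbours. The serine enzymes and the chaperone were thus abundant in resting cells, while the proapoptotic factor Ddit3 and the feedback regulators Trib3 and Chac1 were scarce.

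**Figure D1:**
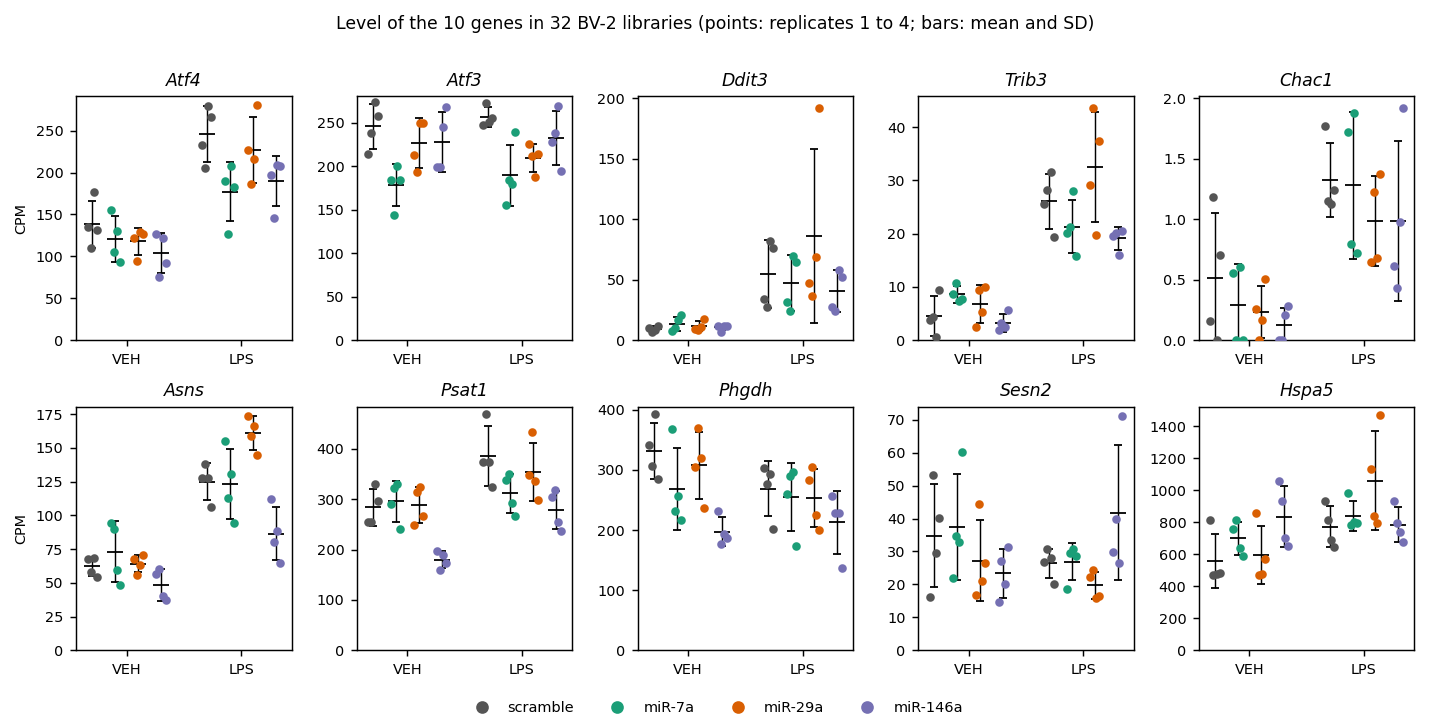
Level of each of the 10 genes in CPM (y axes start at 0 and differ between panels) in the 8 groups, with points for the 4 libraries and bars for the mean ± SD. Ddit3, Trib3 and Asns sit higher in every LPS group than in its VEH group with no overlap, Atf3 stays between 144 and 274 CPM throughout, and Chac1 lies near 0.

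The first comparison asked which of the genes responded to LPS in cells with the scramble mimic. The transcripts called, all higher, were the pseudokinase Trib3, the transcription factor Ddit3, the asparagine synthetase Asns and Atf4 itself. Trib3 and Ddit3 rose 6.90-fold and 5.28-fold, Asns 2.04-fold and Atf4 1.81-fold. Of the 9 members tested, 4 were called at an adjusted p under 0.05, all higher, where 17.8% of the 12106 genes tested were called in either direction and 9.55% were called higher. The median log2 change of the 9 members was 0.53, beside 0.01 for all genes tested. In bulk RNA a change in the share of cells that respond and a change in RNA per cell cannot be told apart.

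Atf4 (chr15:80255184-80257541, + strand, GRCm38) was measured at 134.7, 109.9, 177.3 and 131.8 CPM in the 4 VEH scramble libraries. In the 4 LPS scramble libraries it stood at 233.0, 205.0, 279.8 and 266.4 CPM. Every LPS library was above every VEH library. The log2 change was 0.85 (SE 0.17, n = 4 per group, limma-voom adjusted p = 0.00621).

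Ddit3 (chr10:127290774-127296288, + strand), whose protein CHOP promotes cell death under lasting ER stress, was at 10.0, 6.79, 8.61 and 12.03 CPM under VEH and at 34.4, 27.3, 81.6 and 76.1 CPM under LPS. The groups were far apart, and within LPS replicates 3 and 4 were well above replicates 1 and 2. The same held in the other LPS groups, where replicates 3 and 4 were always the higher pair. The log2 change was 2.40 (SE 0.41, limma-voom adjusted p = 0.00243). Ddit3 overlaps the methionyl-tRNA synthetase gene Mars on the opposite strand and the transcript Gm4189. The sources used here do not say whether counting used the strand, so reads in the overlap cannot be assigned with certainty. Mars itself had a log2 difference of 0.06 (limma-voom adjusted p = 0.841).

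Trib3 (chr2:152337422-152344032, − strand), which binds ATF4 and CHOP and restrains their activity, was at 3.87, 4.43, 0.507 and 9.46 CPM under VEH. It was at 25.5, 28.2, 31.5 and 19.3 CPM under LPS. The lowest VEH value rested on 2 counts and the highest on 81, so the resting level is known only roughly, while every VEH library was below every LPS library. The log2 change was 2.79 (SE 0.53, limma-voom adjusted p = 0.00466). The rise was 4.35-fold without VEH replicate 3, which held the lowest value, and 11.1-fold without VEH replicate 4, which held the highest.

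Asns (chr6:7675169-7693254, − strand), which makes asparagine and is a standard readout of amino acid shortage, was at 67.7, 58.2, 68.7 and 54.1 CPM under VEH. Under LPS it was at 128, 138, 128 and 106 CPM. It had the tightest spread of the 4 called genes and the lowest adjusted p among the members (log2 change 1.03, SE 0.15, limma-voom adjusted p = 0.000824). All 4 calls held when any 1 of the 8 libraries was left out.

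The serine enzymes did not pass the test. Psat1 (chr19:15904678-15947337, − strand), a phosphoserine aminotransferase, went from 284 ± 36.1 CPM (SD, n = 4) to 385 ± 60.0 CPM, a log2 difference of 0.45 (SE 0.15, limma-voom adjusted p = 0.0622), with 1 LPS library, at 325 CPM, below the highest VEH library. Phgdh (chr3:98313170-98339990, − strand), the first enzyme of serine synthesis, was at 332 ± 46.9 and 268 ± 45.7 CPM, a log2 difference of −0.29 (SE 0.17, limma-voom adjusted p = 0.252). Replicate numbers paired the libraries in this comparison, and with the replicate as a block the Psat1 difference of 0.46 was called (adjusted p = 0.0426). Over the alternatives run for Psat1 the adjusted p ran from 0.0204 to 0.151.

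Hspa5 (chr2:34771970-34777547, + strand), the ER chaperone, was at 812.9, 467.5, 474.5 and 480.0 CPM under VEH and at 933.8, 815.1, 692.0 and 647.4 CPM under LPS. VEH replicate 1 stood far above the other 3 and inside the LPS range. The log2 difference was 0.53 (SE 0.21, limma-voom adjusted p = 0.0978), and 0.71 (adjusted p = 0.0103) without that library. With the replicate block it was 0.51 (adjusted p = 0.0223), and over all alternatives the adjusted p ran from 0.0103 to 0.251. The block called 6 of the 9 members (the 4 above with Psat1 and Hspa5) beside 24.8% of all genes.

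Atf3 (chr1:191170296-191218039, − strand), an inducible repressor, was at 246 ± 25.6 CPM under VEH and 256 ± 11.01 CPM under LPS (log2 difference 0.08, SE 0.13, limma-voom adjusted p = 0.70). Its resting and LPS levels differed by less than the spread between libraries. Sesn2 (chr4:132492032-132510501, − strand), a leucine sensor that restrains the growth kinase mTORC1, was at 16.3, 53.2, 29.6 and 40.2 CPM under VEH and at 26.9, 30.7, 27.9 and 20.2 CPM under LPS. Its VEH libraries spread over a wider range than its LPS libraries, and the log2 difference of −0.26 (SE 0.30, limma-voom adjusted p = 0.577) was within that spread.

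Chac1 (chr2:119351229-119354381, + strand), which degrades glutathione, was near the limit of detection. Deposited values under 10 were read as whole counts by rule, which covers all of its VEH values. Read so, the 16 VEH libraries held 26 counts in all, 6 of them at 0 and 13 at 3 counts or fewer, while the 16 LPS libraries held between 4 and 27 counts each and 192 in all. The LPS libraries were mostly deeper. In CPM the LPS libraries lay above their VEH libraries with no overlap in the 3 mimic groups. Shallow libraries at 0 limit this, since 3 counts stood for 3.84 CPM in VEH miR-7a replicate 4 and 1.85 CPM in VEH miR-146a replicate 1. The lowest LPS values with these mimics were 0.717 and 0.434 CPM, so a single count in either library would have made the ranges overlap. In scramble the VEH and LPS libraries overlapped, with 0.161, 1.18, 0.00 and 0.701 CPM under VEH and 1.77, 1.15, 1.13 and 1.24 CPM under LPS. The overlap rests on VEH scramble replicate 2, whose 4 counts a simpler rule of restoring decimals read as 0.4. That rule read 4 VEH libraries lower in this gene, for 13.3 counts in all, and no LPS library differently. With all libraries it did not reach the count minimum of the test in any LPS against VEH comparison. In scramble it reached it in 4 of the 8 fits that leave out 1 library, with log2 differences from 1.12 to 2.10, and was called in 1 of them, without VEH replicate 2 (2.10, limma-voom adjusted p = 0.0404, highest of the 4 adjusted p 0.203). In limma-voom without that filter its log2 differences between LPS and VEH were 1.62 with scramble (adjusted p = 0.123), 1.70 with miR-29a (adjusted p = 0.0637), 1.92 with miR-146a (adjusted p = 0.314) and 0.97 with miR-7a (adjusted p = 0.217). In the fit of all 8 groups the scramble difference of 1.57 passed (adjusted p = 0.0409) and the mimic ones did not.

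**Figure D2:**
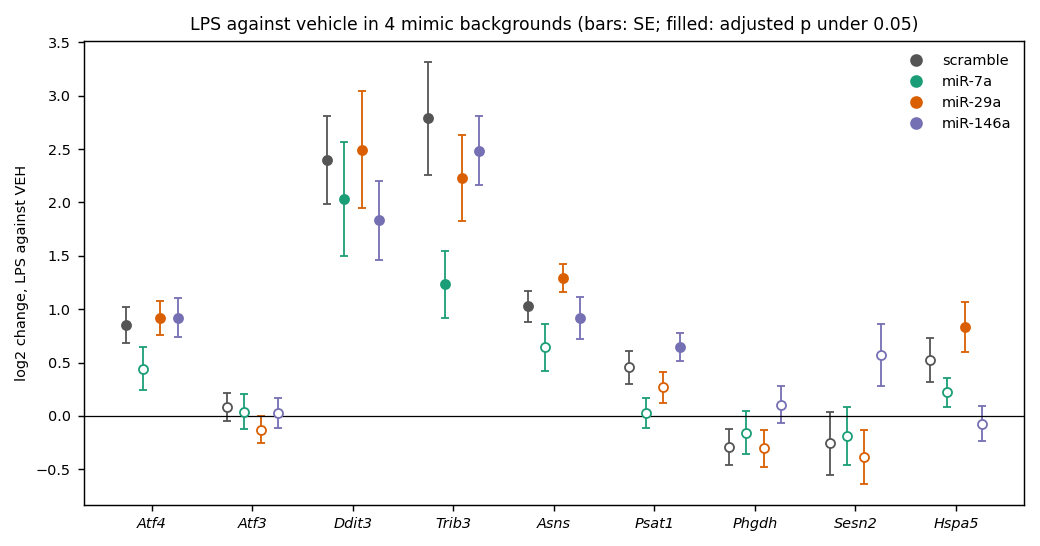
Log2 change from VEH to LPS of the 9 tested genes with the scramble mimic and with each microRNA mimic, bars showing the SE of the limma-voom fit and filled symbols an adjusted p under 0.05. Ddit3 and Trib3 lie between 1.23 and 2.79 with every mimic, while Atf3 and Phgdh stay between −0.30 and 0.11.

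The same LPS comparison was made within each mimic. Ddit3 and Trib3 were called higher in all 4, Atf4 and Asns in 3 of 4, Psat1 and Hspa5 in 1 of 4, and Atf3, Phgdh and Sesn2 in none. Over all genes, 9.55% were called higher with scramble, 12.7% with miR-29a, 2.85% with miR-146a and 2.61% with miR-7a. How many genes recurred over the 4 was not counted. The miR-7a calls of Ddit3 and Trib3 each held in 7 of 16 alternatives. The 4 comparisons use different libraries.

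With miR-29a, 5 of 9 members were higher, beside 26.4% of all genes called and 12.7% called higher. The summed microglial markers went from 3302 to 3489 CPM under VEH to 2177 to 3056 CPM under LPS, the lowest of the 8 groups in mean, and their part in these values was not tested. Atf4 rose from 121.7, 93.95, 129.0 and 126.5 CPM to 226.7, 185.9, 216.2 and 280.7 CPM (log2 change 0.92, SE 0.16, limma-voom adjusted p = 0.00167). Asns rose from 64.2 ± 6.36 to 161 ± 12.6 CPM (1.29, SE 0.13, limma-voom adjusted p = 4.85e-05), the highest level of this enzyme in any group. These 2 sets of libraries did not overlap for either gene. Ddit3 rose by 2.50 (SE 0.55, limma-voom adjusted p = 0.0064) and Trib3 by 2.23 (SE 0.40, limma-voom adjusted p = 0.00198). One library carried much of the Ddit3 mean, since the LPS values were 47.4, 36.3, 69.0 and 192 CPM. The same library, replicate 4, had the highest Hspa5 level of all 32, with 1133, 838.6, 797.4 and 1468 CPM under LPS against 855.0, 468.1, 478.2 and 568.2 CPM under VEH. The Hspa5 change was 0.83 (SE 0.23, limma-voom adjusted p = 0.02), and its groups overlapped. Over 15 alternatives, Hspa5 was called in 10, with adjusted p from 0.00129 to 0.0659. It missed the threshold without LPS replicate 1 (0.78, adjusted p = 0.0547) or 4 (0.67, 0.0518), or without VEH replicate 2 (0.74, 0.057) or 3 (0.75, 0.0659), and with the simpler restoration of decimals (0.86, 0.0505). With the replicate block, Phgdh was called lower as well (−0.30, adjusted p = 0.0365, range over its alternatives 0.0365 to 0.475), making 6 members beside 37.5% of all genes.

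With miR-146a, 5 of 9 members were higher, beside 4.42% of all genes called and 2.85% called higher. Trib3 went from 1.85, 3.25, 2.43 and 5.64 CPM to 19.7, 20.2, 16.04 and 20.5 CPM, a log2 change of 2.49 (SE 0.32, limma-voom adjusted p = 0.000811). The LPS libraries lay close together and well above all VEH libraries. Atf4 rose by 0.92 (SE 0.18, limma-voom adjusted p = 0.0113), from 104 ± 24.1 to 190 ± 30.1 CPM, and Asns by 0.92 (SE 0.20, limma-voom adjusted p = 0.0173), from 48.5 ± 11.6 to 86.5 ± 19.8 CPM. Ddit3 rose by 1.83 (SE 0.37, limma-voom adjusted p = 0.0129), from 10.5 ± 2.34 to 40.5 ± 17.3 CPM. Psat1 was called in this background, rising from 180 ± 16.9 to 279 ± 38.4 CPM (0.64, SE 0.13, limma-voom adjusted p = 0.0131). All 4 VEH libraries of Psat1, at 196.5, 159.2, 189.7 and 172.7 CPM, were below the LPS libraries, whose lowest was 237.8 CPM. Psat1 missed the threshold without VEH replicate 2 (0.58, limma-voom adjusted p = 0.0529), and Asns without VEH replicate 3 (0.83, adjusted p = 0.0861) or 4 (0.80, adjusted p = 0.0632). Hspa5 was at 835 ± 193 and 785 ± 110 CPM (−0.07, SE 0.16, limma-voom adjusted p = 0.862).

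With miR-7a, 2 of 9 members were higher, beside 6.45% of all genes called and 2.61% called higher. Ddit3 went from 7.55, 9.90, 16.4 and 20.5 CPM to 31.8, 23.8, 69.2 and 64.9 CPM (log2 change 2.03, SE 0.53, limma-voom adjusted p = 0.0418). Trib3 went from 8.65, 10.7, 7.29 and 7.68 CPM to 20.1, 21.3, 27.98 and 15.9 CPM (1.23, SE 0.31, limma-voom adjusted p = 0.0359). The groups of both genes did not overlap. Asns (0.64, SE 0.22, limma-voom adjusted p = 0.113) and Atf4 (0.44, SE 0.20, limma-voom adjusted p = 0.234) missed the threshold. Asns passed it with DESeq2 (0.69, adjusted p = 0.0333), without the filter (0.68, adjusted p = 0.0392), in the fit of all 8 groups (0.67, adjusted p = 0.0335) and with the replicate block (0.73, adjusted p = 0.00516). The same fit of all 8 groups called neither Ddit3 (2.04, adjusted p = 0.0619) nor Trib3 (1.26, adjusted p = 0.104), and with the simpler restoration of decimals limma-voom did not call Ddit3 (1.97, adjusted p = 0.0942). Each of the 8 fits that leave out 1 library called 0 or 1 member. The VEH libraries 2 to 4 are the shallow ones with up to 40.2% structural RNA, and without them 0 of 9 members were called by limma-voom, with Ddit3 at 2.51 (adjusted p = 0.254), Trib3 at 1.26 (adjusted p = 0.297), Asns at 0.36 (adjusted p = 0.682) and Atf4 at 0.16 (adjusted p = 0.87), leaving a lone VEH library that was assumed to vary like the other groups. The part of the structural RNA in these values was not tested. Of the LPS genes, Il1b did not pass the limma-voom test with miR-7a (1.18, adjusted p = 0.174) or miR-146a (2.53, adjusted p = 0.191), and Nos2 passed with miR-7a (3.74, adjusted p = 0.0165) and miR-146a (4.29, adjusted p = 0.0266). Without the 3 VEH miR-7a libraries neither passed with miR-7a (Il1b 1.15, adjusted p = 0.477, and Nos2 5.21, adjusted p = 0.208), and with the simpler restoration Il1b did (1.71, adjusted p = 0.0167). DESeq2 did not call Nos2 with miR-7a (2.15, adjusted p = 0.118), and called Il1b with miR-146a (2.96, adjusted p = 0.00108), as did edgeR's quasi-likelihood test (2.93, adjusted p = 0.0338).

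Whether the LPS change itself differed between a mimic and scramble was tested by an interaction over 16 libraries. No member was called for miR-7a (0.00835% of all genes called), miR-29a (0.0165%) or miR-146a (0.0%). At an unadjusted p under 0.05 there were 1, 0 and 1 of 9 members, beside 5.32%, 6.5% and 11.1% of all genes, and edgeR's quasi-likelihood test and DESeq2 called 0 members each (by DESeq2 0.546%, 0.149% and 0.197% of all genes). The smallest unadjusted p was that of Trib3 for miR-7a, whose LPS change was lower by 1.52 on the log2 scale (SE 0.66, unadjusted p = 0.0326, limma-voom adjusted p = 0.882), and was −1.496 without VEH miR-7a replicates 2 to 4 (adjusted p = 0.999). It ran from −0.86 without VEH scramble replicate 3 to −2.22 without VEH scramble replicate 4, and was −1.18 with DESeq2, with no call. The other was Hspa5 for miR-146a, at −0.59 (SE 0.27, unadjusted p = 0.0436, adjusted p = 0.431). The SE of the interaction was 0.63 to 0.77 for Ddit3 and 0.66 to 0.72 for Trib3, so differences in their LPS response of up to 1 on the log2 scale lay within 2 SEs of 0.

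The next comparison asked what each mimic did in cells given LPS. By limma-voom, 0 of the 10 members were called for each mimic, beside 2.41% of all genes for miR-7a, 4.63% for miR-29a and 2.29% for miR-146a. At an unadjusted p under 0.05 there were 2, 3 and 4 members, beside 17.3%, 21.5% and 17.4% of all genes. The edgeR quasi-likelihood test called 0 members each, and DESeq2 called 1, 0 and 2, beside 6.03%, 7.8% and 5.73% of all genes. Replicate numbers paired the libraries here, and with the replicate as a block several members passed, as given below.

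Under LPS with miR-7a, Atf4 was at 190.4, 126.8, 208.0 and 183.0 CPM, against 233.0, 205.0, 279.8 and 266.4 CPM with scramble. Each miR-7a library was below the scramble library of the same number. The log2 difference was −0.49 (SE 0.17, limma-voom adjusted p = 0.152), and −0.49 with the block (adjusted p = 0.0055, range over its alternatives 0.0055 to 0.33). Atf3 was at 155.6, 184.0, 179.3 and 238.9 CPM against 247.2, 272.2, 251.2 and 254.8 CPM, with no overlap (−0.46, SE 0.14, limma-voom adjusted p = 0.104). With the block it was called at −0.45 (adjusted p = 0.0199, range 0.0199 to 0.232), and also without LPS miR-7a replicate 4 (−0.58, adjusted p = 0.0348). Psat1 was at 312 ± 39.2 against 385 ± 60.0 CPM (−0.30, SE 0.14, limma-voom adjusted p = 0.291, with the block −0.31 and 0.0386, range 0.0386 to 0.46). The block called these 3 members, all lower, beside 8.74% of all genes. Under VEH the Atf3 values also lay apart, at 178 ± 23.9 CPM with miR-7a against 246 ± 25.6 CPM, a log2 difference of −0.44 (SE 0.16) that was not called (limma-voom adjusted p = 0.317), and −0.41 (adjusted p = 0.985) without VEH miR-7a replicates 2 to 4.

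Under LPS with miR-146a, Asns was at 112, 80.5, 88.1 and 64.9 CPM against 128, 138, 128 and 106 CPM with scramble. The miR-146a library was lower within each replicate number, though the ranges overlapped. The log2 difference was −0.52 (SE 0.16, limma-voom adjusted p = 0.113), and −0.56 with the block (adjusted p = 0.0102, range over its alternatives 0.0102 to 0.231). Psat1 was at 305.1, 317.4, 255.0 and 237.8 CPM against 372.9, 468.4, 374.8 and 325.0 CPM, with no overlap (−0.46, SE 0.14, limma-voom adjusted p = 0.103, with the block −0.46 and 0.00546, range 0.00546 to 0.245). Atf4 was at 190 ± 30.1 against 246 ± 33.7 CPM (−0.38, SE 0.15, limma-voom adjusted p = 0.224, with the block −0.38 and 0.012, range 0.012 to 0.453). Phgdh was at 213 ± 51.9 against 268 ± 45.7 CPM (−0.34, SE 0.19, limma-voom adjusted p = 0.39, with the block −0.35 and 0.0182, range 0.0182 to 0.846). The block called these 4 members, all lower, beside 10.6% of all genes.

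Under LPS with miR-29a, Asns was at 174, 159, 166 and 144 CPM, all above the highest scramble library of 138 CPM. The log2 difference was 0.36 (SE 0.12, limma-voom adjusted p = 0.103), and 0.36 with the block (adjusted p = 0.0289, range over its alternatives 0.0289 to 0.284). Atf3 was at 225.3, 211.3, 187.1 and 213.4 CPM, all below the lowest scramble library of 247.2 CPM (−0.30, SE 0.10, limma-voom adjusted p = 0.123, with the block −0.30 and 0.0459, range 0.0459 to 0.261). The block called these 2 members beside 9.79% of all genes. Asns and Atf3 thus differed from scramble in opposite directions with this mimic, and Asns stood on opposite sides of scramble with miR-29a and miR-146a, which share their scramble libraries.

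**Figure D3:**
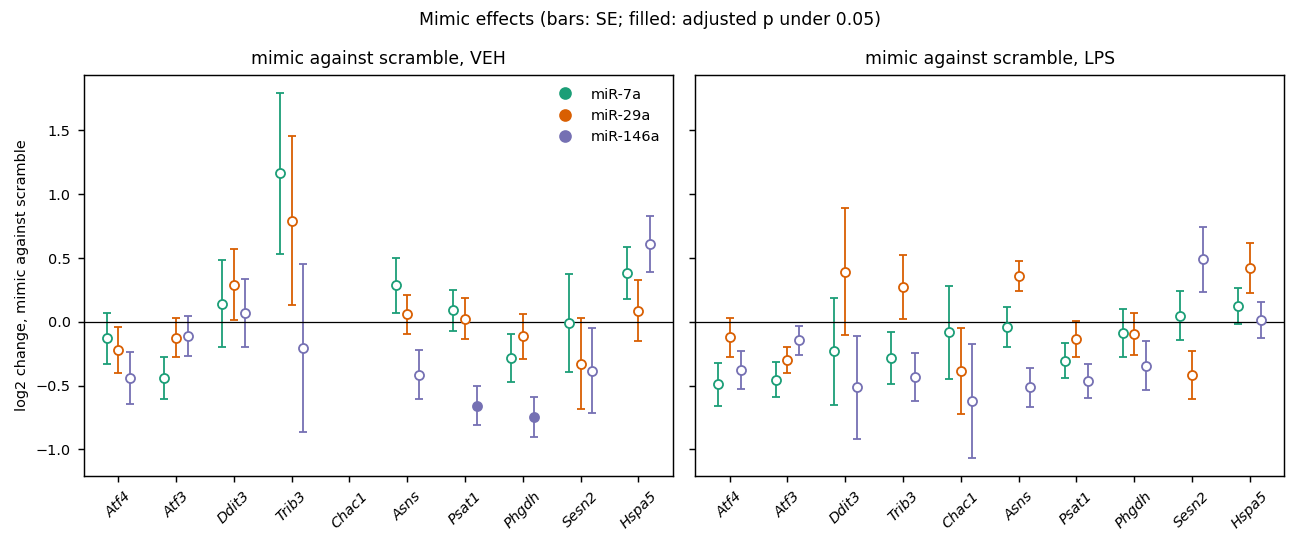
Log2 difference between each mimic and scramble under VEH and under LPS, bars showing the SE of the limma-voom fit without a replicate block and filled symbols an adjusted p under 0.05. Only Psat1 and Phgdh with miR-146a under VEH are filled, at −0.66 and −0.75.

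Without LPS, the mimics were compared in the same way. For miR-7a and for miR-29a, limma-voom called 0 of 9 members, beside 0.0456% and 0.00871% of all genes, with 1 and 0 members at an unadjusted p under 0.05 (12.3% and 10.3% of all genes) and 0 called by DESeq2 (2.12% and 0.75% of all genes) or edgeR's quasi-likelihood test. For miR-7a the count was also 0 without its 3 libraries high in structural RNA, with a lone miR-7a library left. For miR-146a, 2 of 9 members were called lower, beside 2.04% of all genes in either direction and 1.1% lower. Both were enzymes of serine synthesis. At an unadjusted p under 0.05 there were 4 members, beside 25.2% of all genes, and DESeq2 called 2, beside 11.1%.

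Phgdh was at 341.6, 306.6, 392.5 and 285.2 CPM with scramble and at 232.1, 176.7, 192.9 and 187.2 CPM with miR-146a. Psat1 was at 254.9, 254.7, 329.3 and 296.2 CPM with scramble and at 196.5, 159.2, 189.7 and 172.7 CPM with miR-146a. The ranges of scramble and miR-146a did not overlap for either enzyme. Phgdh fell by 0.75 on the log2 scale (SE 0.16, limma-voom adjusted p = 0.039) and Psat1 fell by 0.66 (SE 0.15, limma-voom adjusted p = 0.0485). The calls sit close to the threshold: of 8 fits that each leave out 1 library, Phgdh was called in 2 (without VEH scramble replicate 1 or 2) and Psat1 in 1 (without VEH scramble replicate 1), with adjusted p over all alternatives from 0.000703 to 0.132 and from 0.00226 to 0.143. Neither has a miR-146a-5p seed match in the 3′ UTR searched, which is 133 bases long in Phgdh and 1368 in Psat1. Asns (48.5 ± 11.6 against 62.2 ± 7.17 CPM) and Atf4 (104 ± 24.1 against 138 ± 28.2 CPM) had log2 differences of −0.42 (SE 0.19, limma-voom adjusted p = 0.197) and −0.44 (SE 0.20, limma-voom adjusted p = 0.198). Hspa5 lay on the other side, at 835 ± 193 against 559 ± 170 CPM (0.61, SE 0.22, limma-voom adjusted p = 0.118), and was called without the VEH scramble replicate 1 that stood high (0.80, adjusted p = 0.0279).

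In the folate and serine enzyme list, 2 of 11 genes tested were lower in the same comparison and none was higher, with a list median of −0.50 beside −0.03 for all genes, and beside 2.04% of all genes called and 1.1% called lower. These were Shmt2, the mitochondrial enzyme that splits serine, at 53.0 ± 4.84 against 108 ± 25.3 CPM (log2 change −1.02, limma-voom adjusted p = 0.0282), and Mthfd2, the next mitochondrial folate enzyme, at 12.9 ± 6.66 against 23.8 ± 5.67 CPM (−1.15, limma-voom adjusted p = 0.046). Mthfd2 was also lower with miR-146a under LPS (43.7 ± 6.73 against 70.4 ± 9.89 CPM, −0.67, limma-voom adjusted p = 0.0379). The edgeR quasi-likelihood test called Shmt2 (adjusted p = 0.0224) but not Mthfd2 under VEH (0.0771) or LPS (0.0521). With the simpler restoration neither was called, with limma-voom adjusted p of 0.0923 for Shmt2 and 0.108 for Mthfd2 under VEH and 0.104 for Mthfd2 under LPS, and 0 of all genes were called under VEH. Psph, the enzyme between Psat1 and Shmt2, was at 6.11 ± 0.62 against 8.98 ± 2.23 CPM (−0.44, SE 0.26, limma-voom adjusted p = 0.307).

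The 84 other genes of the pathway were followed in 7 lists, whose counts stand beside the 17.8% of all genes called in scramble cells, 9.55% higher. In these cells LPS raised 9 of 20 cytosolic aminoacyl-tRNA synthetases, the enzymes that charge tRNAs, and lowered none (list median 0.44, all genes 0.01). Aars rose by 1.19 (limma-voom adjusted p = 0.000917), Tars by 1.08 (adjusted p = 0.00503), Iars by 0.66 (adjusted p = 0.00674) and Cars by 0.70 (adjusted p = 0.00674). Among 12 serine, glycine, proline and folate enzymes 3 rose and 0 fell (median 0.26): Cth, which makes cysteine from cystathionine, by 2.90 (adjusted p = 0.0118), Mthfd2 by 1.57 (adjusted p = 0.00026) and Aldh1l2 by 0.79 (adjusted p = 0.0127). Cth started from 0.62 CPM (0.0 to 1.18) in VEH scramble, near the limit of detection, so the size of its rise is known only roughly. Of 9 amino acid transporters 2 rose and 0 fell (median 0.34): the glycine transporter Slc6a9 by 1.80 (adjusted p = 0.0023) and the cystine transporter Slc7a11 by 1.10 (adjusted p = 0.00229).

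Among 13 sensors and regulators of the integrated stress response, 4 rose and 0 fell (median 0.29). The eIF2α kinase that rose was Eif2ak2, the double-stranded RNA sensor PKR, by 1.46 (limma-voom adjusted p = 0.000287), which is also an interferon-induced gene. The others were Nupr1 at 1.74 (adjusted p = 0.026), Jdp2 at 1.21 (adjusted p = 0.0205) and the Atf4 partner Cebpg at 0.61 (adjusted p = 0.0133). Of 13 ER chaperones and folding enzymes 3 rose and 0 fell (median 0.23): Dnajb11 by 0.73 (adjusted p = 0.0203), Hyou1 by 0.60 (adjusted p = 0.0355) and Hsp90b1 by 0.55 (adjusted p = 0.026). By limma-voom 0 of 9 genes of ER-associated degradation and the other stress sensors were called (median 0.13), with 0 by DESeq2 and by edgeR's quasi-likelihood test and 1 with the replicate block. Of 3 secreted stress factors 1 rose, Vegfa, by 0.91 (adjusted p = 0.00767).

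**Figure D4:**
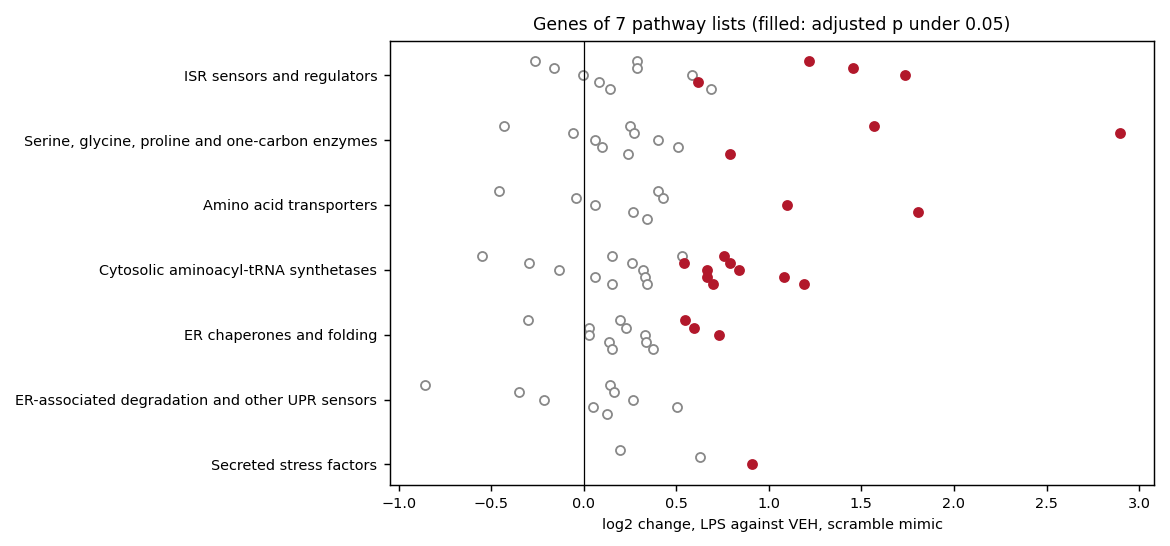
Log2 change from VEH to LPS with the scramble mimic for every tested gene of the 7 pathway lists, 1 point per gene, with filled points for an adjusted p under 0.05 (limma-voom). The aminoacyl-tRNA synthetases hold 9 filled points among 20, and no filled point lies below 0.

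The same lists were counted in the mimic backgrounds. With miR-29a, where 26.4% of all genes were called and 12.7% were called higher, LPS raised 10 of 20 synthetases and lowered 1, raised 5 of 13 ER chaperones, and raised 4 and lowered 2 of 13 regulators, the lowered ones including the amino acid sensor kinase Eif2ak4 (GCN2) at −0.56 (limma-voom adjusted p = 0.00454). It also raised 3 of 12 serine, glycine, proline and folate enzymes, 2 of 9 transporters and 1 of 3 secreted factors, Gdf15, by 1.47 (limma-voom adjusted p = 0.00838). In the list of ER-associated degradation and the other sensors it raised Derl2 by 0.48 (adjusted p = 0.0487) and lowered Edem1 (−0.40, adjusted p = 0.0497), 2 of 9 genes, and this list had 0 limma-voom calls with the other mimics, with 0 by DESeq2 and edgeR. With the replicate block, beside 37.5% of all genes, LPS with miR-29a raised 10 of 13 ER chaperones, raised 12 and lowered 2 of 20 synthetases, raised 5 and lowered 3 of 13 regulators, and raised 3 and lowered 1 of 9 genes of the ER-associated degradation list. With miR-146a (4.42% of all genes called, 2.85% higher) it raised 4 of 12 of the folate and serine enzymes, with Mthfd2 at 2.03 (limma-voom adjusted p = 0.000417), 5 of 20 synthetases, 3 of 13 regulators and 1 of 9 transporters, Slc6a9, by 2.67 (limma-voom adjusted p = 0.00588). No ER chaperone was called with miR-146a by limma-voom, DESeq2 or edgeR. With miR-7a (6.45% of all genes called, 2.61% higher) it raised 2 of 13 regulators, 2 of 20 synthetases and 1 of 12 enzymes. Without the 3 VEH libraries high in structural RNA 0 list genes were called by limma-voom, beside 86 of 13478 genes, with Aars at 0.33 (adjusted p = 0.655) and Mthfd2 at 0.72 (adjusted p = 0.375). With all libraries Aars rose in all 4 backgrounds, by 1.28 with miR-29a (adjusted p = 0.000225), 1.06 with miR-146a (adjusted p = 0.00242) and 0.79 with miR-7a (adjusted p = 0.0278). Mthfd2 did so too, by 1.78 with miR-29a (adjusted p = 3.04e-05) and 1.04 with miR-7a (adjusted p = 0.0248).

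Between mimic and scramble under LPS, without the replicate block, 2.41% of all genes were called for miR-7a, 4.63% for miR-29a and 2.29% for miR-146a. With the simpler restoration these calls over all genes went from 310 to 20, from 604 to 197 and from 286 to 41. Of the list genes, only Mthfd2 is given with that restoration. The list genes called without the block were these. With miR-7a, the mTORC1 inhibitor Ddit4 fell by 1.22 on the log2 scale (limma-voom adjusted p = 0.00735), the C/EBP factor Cebpb by 0.84 (adjusted p = 0.0212), the proline enzyme Pycr1 by 0.86 (adjusted p = 0.0269) and the alanine transaminase Gpt2 by 0.80 (adjusted p = 0.0151). With miR-29a, Ddit4 fell by 0.89 (limma-voom adjusted p = 0.0277) and Vegfa by 0.69 (adjusted p = 0.0415), and Psph, the last enzyme of serine synthesis, rose by 0.77 (adjusted p = 0.0132). With miR-146a, the ER chaperone Dnajb9 rose by 0.67 (limma-voom adjusted p = 0.0296), beside the Mthfd2 difference above. These comparisons share the LPS scramble libraries.

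Since replicate numbers paired these libraries, the lists were also counted with the block, beside 8.74% of all genes for miR-7a, 9.79% for miR-29a and 10.6% for miR-146a. With miR-146a, 8 of 20 synthetases were then lower and 0 higher, against 0 called without the block. Of 12 serine, glycine, proline and folate enzymes 4 were lower and 0 higher with miR-146a, against 1 called without it. The transporters, the ER chaperones and the list of ER-associated degradation each had 1 gene higher and 1 lower with miR-146a, and the regulators and the secreted factors 1 lower each. With miR-7a, 5 of 12 enzymes were lower and 0 higher (2 called without the block), 3 of 20 synthetases were lower (0 without it), and 3 of 13 regulators were lower and 1 higher (2 without it). The transporters, the list of ER-associated degradation and the secreted factors each had 1 gene lower with miR-7a, and the ER chaperones 1 higher. With miR-29a, 2 of 20 synthetases and 1 of 9 transporters were lower, 2 of 13 regulators were lower and 1 higher, 1 of 12 enzymes was higher, 1 of 3 secreted factors was higher and 1 lower, and no gene of the ER lists was called. By limma-voom without the block, 0 synthetases and 0 transporters were called for any of the 3 mimics, while DESeq2 called 2 synthetases with miR-7a and 1 with each of the other mimics, and 1 transporter with miR-29a, and edgeR's quasi-likelihood test called 0.

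Across the 32 libraries the members did not move as 1 block. Pearson's r of log2(CPM + 1) was 0.833 between Atf4 and Ddit3, 0.789 between Ddit3 and Trib3 and 0.765 between Atf4 and Asns, while it was 0.21 between Atf4 and Atf3 and −0.0029 between Atf4 and Phgdh. These are descriptions over libraries that share groups, replicate numbers and depth differences. Among 12058 genes, those most like Atf4 were Clec4a1 (r = 0.903), Bcl3 (0.885) and Mthfd2 (0.862), and those most like Ddit3 were Nupr1 (0.911), Tbc1d31 (0.905) and Bcl3 (0.903). Trib3 was closest to the interferon-induced genes Irf7 (0.896), Rsad2 (0.89) and Oasl1 (0.89), and Asns to Aars (0.914), Hdc (0.913) and 4930438A08Rik (0.91). Atf3 was closest to Nit1 (0.853), Junb (0.813) and Gm5863 (0.789), and Hspa5 to Ubxn4 (0.874), Galnt1 (0.85) and the ER protein disulfide isomerase Pdia3 (0.848). Psat1 was closest to Poc1a (0.856), Traf4 (0.839) and the mitotic gene Birc5 (0.834), and Phgdh to the mitochondrial genes Samm50 (0.902) and Atp5b (0.90) and to Raly (0.857). Tctn1 (0.797) and Rnf126 (0.791) were the closest to Sesn2, and Chac1, at its few counts, was closest to Depdc1b (0.82), Prkrip1 (0.809) and Srsf4 (0.793).

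Several microglial markers moved with LPS as well. In scramble cells 3 of 10 markers tested fell and 1 rose, beside 17.8% of all genes called. Trem2 fell by 1.36 on the log2 scale (limma-voom adjusted p = 0.000273), Tyrobp by 1.10 (adjusted p = 0.00152) and Spi1 by 0.74 (adjusted p = 0.0363), while Itgam rose by 0.54 (adjusted p = 0.041). With miR-29a, 4 of the 10 markers tested fell and 0 rose, beside 26.4% of all genes called. Itgam was among the lower ones (−0.38, limma-voom adjusted p = 0.0372). With miR-146a 2 of 10 fell and 0 rose (4.42% of all genes called), and with miR-7a 2 of 10 fell and 1 rose (6.45%). The summed level of the 12 markers was 3804 to 5115 CPM in the VEH scramble libraries and 2908 to 3481 CPM in the LPS scramble libraries. Their part in the values of the 10 genes was not tested.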

How the data were processed

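RNA was measured in 32 BV-2 libraries in 8 groups, taken from the sample labels. The authors built CORALL total RNA libraries after RiboCop depletion and took gene-level counts from nf-core rnaseq. The submitters' processing notes name limma, edgeR and the build GRCm38. The authors deposited 1 table of estimated counts for 45706 genes, in which many values have lost their decimal mark: 43.1% of deposited values of 20000 or more end in 001 or in a run of nines. Aligner settings and strand use for these libraries are not given in the sources used here. 0 columns had no sample, and no pair of libraries held identical values.

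Decimal marks were restored with a model that reads each value as having 0 to 3 lost decimals by its fit to the same gene in the other libraries. It read 28.2% of values above 0 as having lost decimals, 95.2% of those with 3. Genes with any value of posterior under 0.9 (1.21% of values) were left out of the comparison concerned. The readings of all 10 members passed. In data simulated from its own restored levels and decimal endings, 99.9% of the values it called certain were right. For genes and the group simulated as changed this was 98.1%. Such a test runs the model on its own assumptions and does not measure its accuracy on the deposited values. Values under 10 were read as whole. A simpler rule, which read 18.5% of values above 0 otherwise, was an alternative.

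Each pair of groups was fitted by limma-voom (limma 3.58.1, edgeR 4.0.16, R 4.3.3) on these estimated counts after filterByExpr and TMM scaling, two-sided, with Benjamini-Hochberg adjustment over all genes tested and calls at an adjusted p under 0.05. Log2 changes come from that fit and CPM use TMM-scaled library sizes. CPM per kilobase use annotated gene lengths. Interactions used 16 libraries. Alternatives were DESeq2 1.42.0, edgeR's quasi-likelihood test, no filter, a posterior minimum of 0.99, the simple rule, all 8 groups in 1 fit, the replicate block and leaving out each library. The limma-voom fit was tested on simulated counts for LPS against VEH in scramble and for miR-7a (under LPS, under VEH and their interaction). The other comparisons and the alternatives were not tested in this way.

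Replicate numbers were taken as pairing where the deviations of same-numbered libraries from their group means correlated above 0.1 in all 4 pairs. This held for LPS against VEH in scramble (lowest r 0.228) and miR-29a (0.217), for the 3 mimics under LPS (0.319, 0.340 and 0.226) and for miR-29a under VEH (0.168), with no statement of shared days or batches in the labels.

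The members, lists and tests were chosen with earlier results of these data known. Named genes are the 10 members, up to 4 called genes per list and comparison with the smallest adjusted p, the 3 genes most like each member (1 of them is not reported here), the cell type markers, and Il1b, Nos2 and Saa3. Mars was added after its values were seen, as it overlaps Ddit3, and so was Psph under VEH. Lists are described by counts and medians, with no set test. MicroRNA and promoter sequences come from RefSeq tables and 3′ UTRs from the GENCODE annotation and transcripts. Depth per library (1161272 to 20307171 counts) limits the low genes Chac1 and Trib3. Counting intervals are not given because replicate spread is the error used.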

Additional observations from a re-analysis of the deposited data

Results flagged for a closer look

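In 80 sets of 4 libraries (10 genes in 8 groups), 3 libraries stood far from the other 3 of their group by Dixon's criterion, where chance alone gives about 1 in 20, or 4. Hspa5 was at 813 CPM in VEH scramble replicate 1, against 468 to 480 CPM in the others. Hspa5 was also at 980 CPM in LPS miR-7a replicate 1, against 784 to 799 CPM in the others. Ddit3 was at 6.97 CPM in VEH miR-146a replicate 2, against 11.5 to 11.7 CPM in the others. Replicate 1 had the highest Hspa5 level in 6 of the 8 groups, the exceptions being VEH miR-7a, where it was replicate 2, and LPS miR-29a, where it was replicate 4. No difference of a mimic effect between VEH and LPS was called for any member.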

How the results depend on the processing

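The 4 members called between LPS and VEH in scramble stayed called under all 15 alternatives, as did Atf4, Ddit3, Trib3 and Asns with miR-29a. Counts of called members still moved. LPS with scramble (4) gave 5 with DESeq2, 6 in the fit of all 8 groups and with the block, and 4 to 5 without 1 library. LPS with miR-29a (5) gave 6 with the block, 4 with the simple restoration and 4 to 5 without 1 library, and LPS with miR-146a (5) gave 4 to 5 without 1 library. For miR-7a under LPS (0) DESeq2 and the fit of all 8 groups gave 1, the replicate block 3, and leaving out 1 library 0 to 1. For miR-29a under LPS (0) the block gave 2. For miR-146a under LPS (0) DESeq2 gave 2 and the block 4. For miR-146a under VEH (2) the posterior minimum of 0.99 gave 1, the simple restoration 0, and leaving out 1 library 0 to 3. For LPS with miR-7a (2) DESeq2 and no filter gave 3, the fit of all groups gave 1 (Asns), the simple restoration 1 (Trib3), the block 4, leaving out 1 library 0 to 1, and leaving out VEH miR-7a replicates 2 to 4, an alternative chosen after seeing the data, 0. The causes were not tested.

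Where the replicate numbers did not pair the libraries, the block called 0 members for miR-7a under VEH, 3 for miR-146a under VEH (adding Hspa5 at 0.60, adjusted p = 0.0401), 4 for LPS with miR-7a (adding Asns, and Atf4 at 0.48, adjusted p = 0.0353) and 5 for LPS with miR-146a. Over all genes tested the block called 301 of 10972, 854 of 11605, 1674 of 11708 and 823 of 11961 in these comparisons. Each library correlated best with its own number in 3, 3, 2 and 4 of 4 pairs. The block changed no other call of a member than those given here and beside the results. Over the 7 lists it moved counts where the numbers did not pair the libraries too, such as ER chaperones for LPS with miR-7a, from 0 to 3 of 13.

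No value that changed sign was called either way. For miR-7a under LPS, Chac1 turned to 0.0058 (DESeq2) and 0.026 (edgeR). For miR-7a under VEH, Sesn2 turned to 0.10 (DESeq2), 0.0699 (edgeR), 0.18 (block) and 0.0024 (simple restoration), and without replicates 2 to 4 Atf4 turned to 0.19, Ddit3 to −0.33, Phgdh to 0.16 and, for LPS with miR-7a, Sesn2 to 0.26. Hspa5 turned to −0.055 with the simple restoration (miR-146a under LPS) and to 0.073 with no filter (LPS with miR-146a). Leaving out 1 library gave these ranges of log2 differences. With miR-7a under LPS they were −0.15 to 0.077 (Asns), −0.34 to 0.17 (Chac1), −0.57 to 0.056 (Ddit3), −0.23 to 0.082 (Phgdh) and −0.12 to 0.20 (Sesn2). With miR-7a under VEH they were −0.019 to 0.66 (Ddit3) and −0.36 to 0.36 (Sesn2). With miR-29a under LPS they were −0.0795 to 0.74 (Ddit3) and −0.23 to 0.012 (Phgdh). With miR-29a under VEH they were −0.0003 to 0.13 (Asns), −0.12 to 0.28 (Hspa5), −0.20 to 0.0085 (Phgdh) and −0.033 to 0.11 (Psat1). With miR-146a they were −0.065 to 0.12 (Hspa5, LPS), −0.047 to 0.28 (Ddit3, VEH) and −0.84 to 0.51 (Trib3, VEH). For LPS with miR-7a they were −0.0803 to 0.13 (Atf3), −0.24 to 0.0397 (Phgdh) and −0.038 to 0.10 (Psat1), and for LPS with miR-146a −0.046 to 0.12 (Atf3) and −0.18 to 0.048 (Hspa5).

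Counts over all genes moved by more than 1.5 times in 9 of 10 comparisons of 2 groups, LPS with miR-29a being the exception. LPS with scramble (2153) went to 1087 to 2832 when 1 library was left out. LPS with miR-7a (755) went to 1246 with DESeq2, 7896 with no filter, 1335 with the simple restoration, 1674 with the block and 391 to 802 without 1 library. LPS with miR-146a (529) went to 814, 815 and 823 with DESeq2, the simple restoration and the block, 843 in the fit of all groups and 263 to 488 without 1 library. Under LPS, DESeq2, the simple restoration, the block and leaving out 1 library gave 774, 20, 1124 and 57 to 349 for miR-7a (310), 1015, 197, 1278 and 147 to 666 for miR-29a (604), and 659, 41, 1327 and 18 to 260 for miR-146a (286), for which edgeR gave 166. Under VEH they gave 228, 9, 301 and 0 to 221 for miR-7a (5), 86, 0, 61 and 0 to 2 for miR-29a (1), and 1210, 0, 854 and 0 to 1202 for miR-146a (237). There the fit of all groups gave 150, 82 and 1477, no filter 12, 2 and 397, edgeR 19 and 0 for the first 2, and the posterior minimum of 0.99 gave 24 for miR-7a. The interactions (1 with miR-7a, 2 with miR-29a, 0 with miR-146a) went to 64, 18 and 23 with DESeq2, 4, 4 and 3 with the simple restoration, 18, 13 and 0 with the block, 4, 2 and 0 in the fit of all groups, and 1 to 130, 0 to 3 and 0 to 81 without 1 library. Few counts in VEH libraries limit Chac1 and Trib3.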
